A study of Arabidopsis thaliana with 7 samples.

Results

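The plastid-encoded genes of Arabidopsis thaliana are described here, as measured in roots grown with or without phosphate. They were taken as every row whose locus identifier begins with ATCG, the prefix of the plastid chromosome. That gave 88 of 27416 rows in the table of coding counts, and the same number in the table of double-stranded RNA (dsRNA) counts. Roots were taken from 14-day-old seedlings of the Columbia-0 background, which had spent the last 7 days on plates holding 500 µM phosphate (control) or none (0 µM, low phosphate), with sodium chloride in place of the sodium phosphate. Ribosome footprints and poly(A) RNA came from a line in which the 35S promoter drives a His6FLAG-tagged cytosolic ribosomal protein, named RPL18B in the protocols and 35S:HF-FLAG-RPL8 in the sample characteristics. The dsRNA samples are labelled Col-0. Each of these 6 groups had 2 replicates, called bioreplicates in the design text, and no label says which plants they came from. For poly(A) RNA and dsRNA the stated treatment is the same in both conditions, and it is the titles that name the condition.

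All plastids carry this small circular genome, and root plastids carry it too although they are not green. It encodes core subunits of the photosynthetic complexes, the large subunit of Rubisco, part of a bacterial-type ribosome and the core subunits of a bacterial-type RNA polymerase, while a nuclear-encoded polymerase transcribes the genome as well. Genes lie in long co-transcribed runs on both strands, so that complementary transcripts occur, and a large repeat is present in 2 inverted copies. Stable plastid mRNAs end without a poly(A) tail, and short A-rich tails mark plastid RNA for decay. A poly(A) library therefore does not hold plastid mRNA as it holds nuclear mRNA.

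The footprints were RNase-protected fragments of 26 to 32 nt from ribosomes pulled down by the tag in the presence of cycloheximide and chloramphenicol, inhibitors of cytosolic and of bacterial-type ribosomes. How fragments of untagged plastid ribosomes entered that fraction was not tested. Library totals were 7156329 to 12817826 in footprints, 18262547 to 26746252 in poly(A) RNA and 2735264 to 8249514 in dsRNA. Among coding counts, 73 of the 88 rows had counts and 72 were tested, since rps16 was left out by the filter on low counts. The other 15 rows were at 0 in all 8 coding libraries. Of these, 11 have a symbol that RefSeq lists more than once, 2 are pieces of rps12 and 2 have no symbol, and no level is read from those zeros. In the dsRNA table all 88 rows were tested, and both copies of each repeated gene had counts. The copies of ycf2 were close, with 1935, 686, 487 and 439 reads on one copy and 1994, 704, 496 and 454 on the other, in control replicates 1 and 2 and low phosphate replicates 1 and 2. Those of rpl2 were further apart, with 841, 344, 208 and 134 reads against 863, 370, 254 and 188. No label or header says how reads matching both copies were assigned, and the copies cannot be told apart.

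In low phosphate roots a smaller share of ribosome footprints and of dsRNA fell on plastid genes. Plastid rows took 0.878% and 1.07% of the footprints in the control libraries and 0.648% and 0.599% in the low phosphate libraries. Both low phosphate libraries lay below both controls, and the mean share was 0.973% ± 0.134 (SD, n = 2) against 0.623% ± 0.0345 (SD, n = 2), a ratio of 0.641. In dsRNA the share was 1.33% and 1.29% in the controls and 0.568% and 0.844% in low phosphate. Again the groups did not overlap, with means of 1.31% ± 0.0274 against 0.706% ± 0.195 (SD, n = 2 each) and a ratio of 0.538. In poly(A) RNA the plastid share was 0.0916% and 0.0658% in control and 0.0736% and 0.0641% in low phosphate. Here low phosphate replicate 1 lay between the 2 controls, so the groups overlapped, and the ratio of means was 0.874. Counting error is small beside the gaps in footprints and dsRNA: the 95% Wilson interval of the shallowest library, low phosphate dsRNA replicate 2, ran from 0.833% to 0.855%. In poly(A) RNA the intervals of control replicate 2 (0.0647% to 0.0670%) and low phosphate replicate 2 (0.0631% to 0.0651%) overlapped. With 2 libraries against 2, a two-sided exact permutation test cannot give a p below 0.333, so the shares are given as a description, with no call. In bulk roots, fewer plastids or fewer plastid-rich cells and less plastid RNA per cell cannot be told apart.

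**Figure D1:**
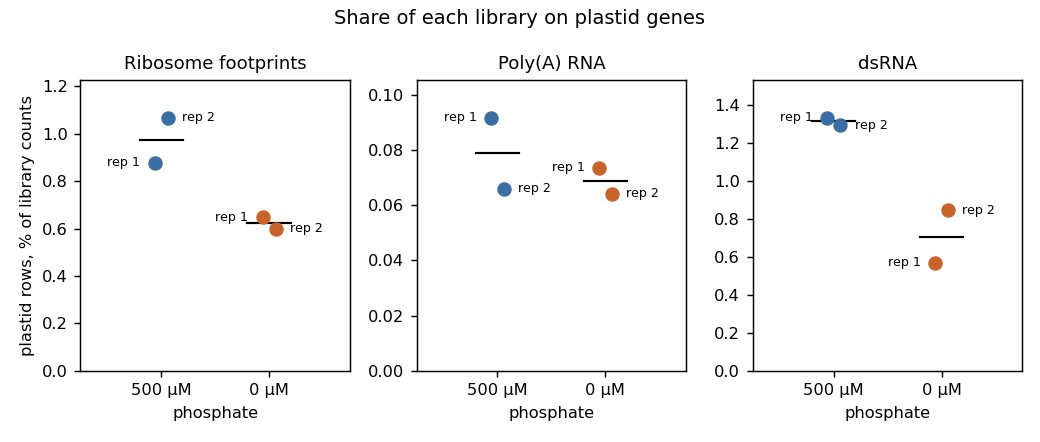
Percent of all counts of each library that fell on plastid rows (y axes, from 0, with a different scale in each panel) in 500 µM and 0 µM phosphate roots, for ribosome footprints, poly(A) RNA and dsRNA. Points are libraries and bars are means of 2. The low phosphate libraries sit below both controls in footprints (0.648% and 0.599%) and dsRNA (0.568% and 0.844%) and overlap them in poly(A) RNA.

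The mitochondrial share did not separate the groups in the same way. Mitochondrion-encoded rows took 0.216% and 0.143% of footprints in control and 0.129% and 0.191% in low phosphate. In dsRNA they took 6.05% and 5.31% in control and 4.30% and 5.98% in low phosphate. In both assays the groups overlapped.

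The 3 assays held different plastid genes. Footprints were dominated by photosynthesis genes: photosystem II, photosystem I, cytochrome b6f, ATP synthase and Rubisco genes took 74.6% and 84.3% of plastid footprints in control and 85.4% and 76.1% in low phosphate. These classes took 59.7% and 62.6% of plastid dsRNA in control and 59.4% and 58.9% in low phosphate. Of plastid poly(A) counts these classes took 29.4% and 34.4% in control and 37.7% and 36.6% in low phosphate. Genes of the plastid ribosome and RNA polymerase showed the opposite order, with 10.3%, 6.41%, 5.30% and 8.86% of footprints against 54.1%, 51.2%, 46.5% and 48.3% of poly(A) counts in the same library order.

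**Figure D2:**
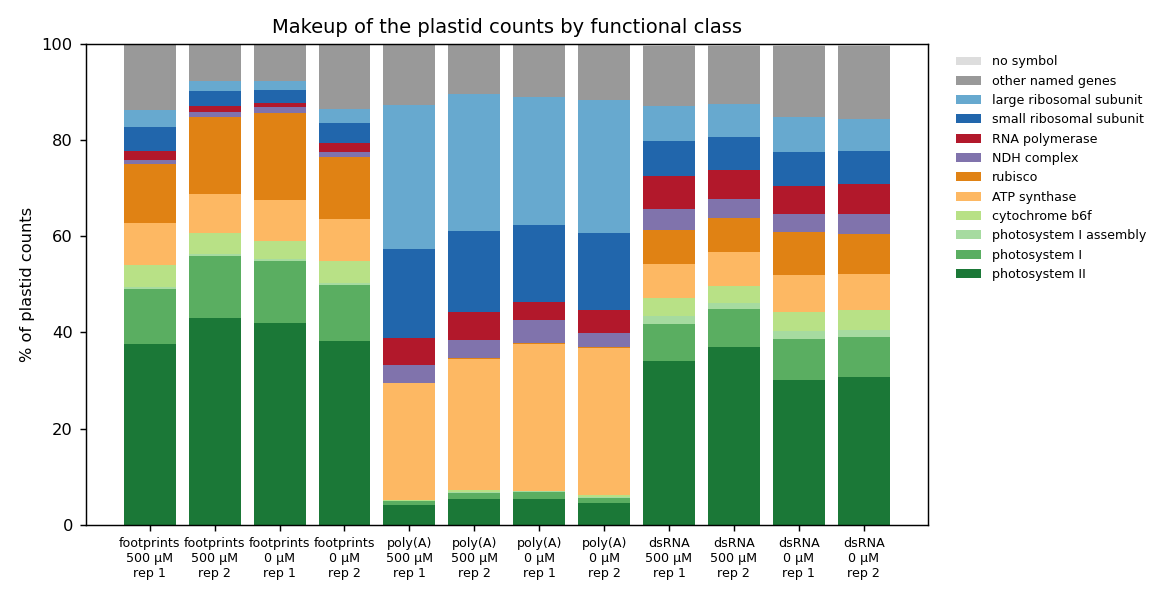
Percent of each library's plastid counts (y axis, 0 to 100) by functional class, 1 bar per library, labelled with assay, phosphate and replicate. Photosystem and Rubisco genes fill most of the footprint bars, and ribosomal protein and ATP synthase genes most of the poly(A) bars. The dsRNA bars lie between them for the photosynthesis classes together and for ribosome and polymerase genes together. For some single classes they do not, among them ATP synthase, RNA polymerase and photosystem I assembly.

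Plastid poly(A) reads were concentrated on 3 stretches of the genome. The 9 neighbours from rpoA to rps19, which encode a polymerase subunit and ribosomal proteins, held 50.8% and 46.2% of plastid poly(A) counts in control roots, and 42.1% and 44.0% under low phosphate. The overlapping pair atpB and atpE, for the beta and epsilon subunits of ATP synthase, added 23.8% and 26.4% in control, against 29.7% and 30.1% in low phosphate. The long copy of ycf1, which encodes a protein of the plastid inner envelope, added 11.4%, 8.47%, 9.23% and 10.3%. In contrast psbA, rbcL and psbC together made up 1.25% to 1.67% of plastid poly(A) counts. They made up 33.1% to 43.1% of plastid footprints and 32.2% to 37.3% of plastid dsRNA over the libraries of both conditions.

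Footprints and poly(A) RNA were then compared gene by gene within each condition. The filter on low counts took the footprint and poly(A) libraries together, so members with few poly(A) reads entered through their footprints. For these members a higher footprint level is no separate finding. With poly(A) RNA fitted alone, 52 members passed the filter. In control roots 62 of the 72 tested members were higher in footprints and 1 was lower (edgeR quasi-likelihood test, Benjamini-Hochberg adjusted over all rows), where 17.1% of all tested rows were higher and 17.6% lower. The median log2 difference was 5.33, also with the 3 members at 0 in control poly(A) RNA (petG, petL and psbT) set to the bound that 3 counts over the group give, which was 0.0667 CPM (counts scaled to a library size of 1e6). All tested rows had a median of 0.00. In low phosphate roots 58 members were higher and 2 lower, where 15.8% of all rows were higher and 16.9% lower, with a member median of 4.93. When each library was scaled to its own plastid total, the split became 39 higher and 20 lower in control and 40 higher and 19 lower in low phosphate. That scaling moved the median of all tested rows to -3.83 in control and -3.38 in low phosphate.

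The largest differences belonged to photosynthesis genes. psbA (ATCG00020) encodes the D1 reaction centre protein of photosystem II. Its level, in CPM scaled by the trimmed mean of M-values (TMM), was 987.5 and 1529 in control footprints and 0.818 and 0.606 in control poly(A) RNA, a log2 difference of 10.75 ± 0.40 (SE). rbcL (ATCG00490), the large subunit of the carbon-fixing enzyme Rubisco, had 1145 and 1806 scaled CPM in control footprints and 1.102 and 1.011 in poly(A) RNA, a log2 difference of 10.43 ± 0.44. For both genes every footprint library lay far above every poly(A) library. Per kilobase of coding sequence, control footprints gave psbA 1185 and rbcL 1025 scaled CPM, the 2 highest values among the 63 members whose coding length was used.

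The photosynthesis classes were higher in footprints almost throughout, 32 of 33 members in control, with a median log2 difference of 8.40. The exception was atpE (ATCG00470), with 70.6 and 65.2 scaled CPM in control footprints and 70.2 and 64.3 in poly(A) RNA. Photosynthesis members with few poly(A) reads, such as petG, petL and psbT, entered through their footprints. For them the difference, and their part in this count and median, is no separate finding. Of the 21 tested members of the gene expression classes (ribosomal proteins and polymerase), 15 were higher and 1 lower in control, with a median of 2.33. The lower one was rpl16 (ATCG00790), a large-subunit ribosomal protein gene, with 38.0 and 28.8 scaled CPM in footprints and 138.1 and 92.9 in poly(A) RNA. Its log2 difference was -1.79 ± 0.25 in control and -2.37 ± 0.25 in low phosphate. Its neighbours rpl14 (ATCG00780), rps3 (ATCG00800) and rpoA (ATCG00740) had log2 differences from -0.28 to 0.48 in control, none past the threshold. accD (ATCG00500) encodes a subunit of acetyl-CoA carboxylase, which makes the precursor of fatty acids in all plastids. It had 840.6 and 529.2 scaled CPM in control footprints against 2.42 and 3.13 in poly(A) RNA, a log2 difference of 7.96 ± 0.41.

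**Figure D3:**
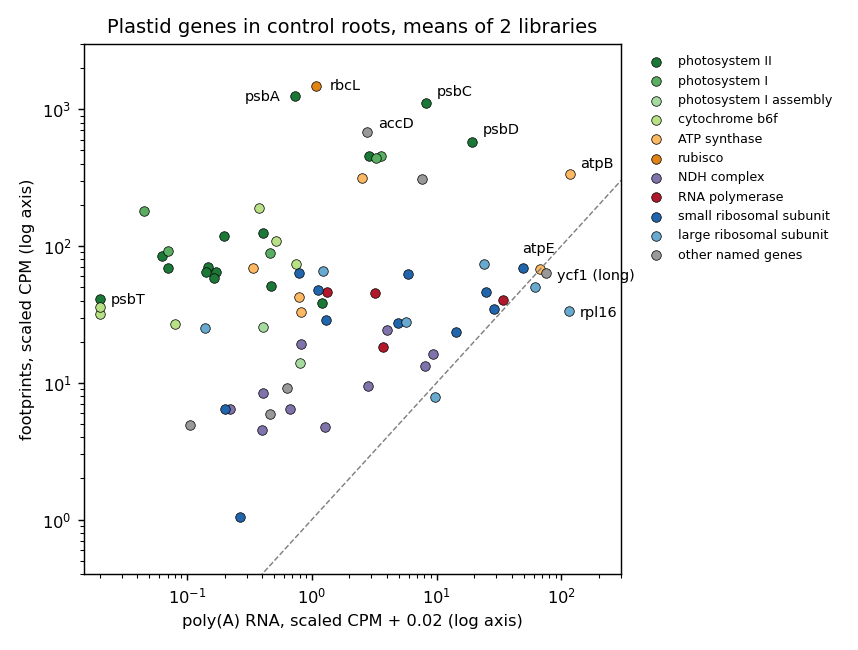
Mean TMM-scaled CPM of each plastid gene with counts in control roots: footprints (y axis) against poly(A) RNA plus 0.02 (x axis), both log axes, coloured by class; genes at the left edge are listed at 0 in poly(A) RNA. The dashed line marks equal values. Most genes lie above it, atpE lies near it and rpl16 below it.

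In low phosphate roots the plastid footprints were lower gene after gene, although few members passed the test on their own. Every one of the 72 tested members had a negative log2 change in footprints, from -1.13 to -0.16 with a median of -0.70, where the median of all tested rows was 0.00. In 60 of the 72 members both low phosphate libraries lay below both controls, against 18.4% of all tested rows. The members were read from the same libraries as the plastid share and are not replicates. These counts are therefore no separate evidence beside the lower share. A single member was called lower after adjustment over all 19866 tested rows, where 0.282% of all rows were called lower and 1.19% in either direction, and 42 had an unadjusted p under 0.05, as had 11.5% of all rows. DESeq2 called 13 members lower, where it called 0.81% of all rows lower. Relative to the plastid total of each library, a scaling that moved the median of all tested rows to 0.63, no member was called and 41 of 72 log2 changes were negative.

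That called member was atpE, which encodes the epsilon subunit of ATP synthase. It had 70.6 and 65.2 scaled CPM in control footprints and 38.6 and 43.0 in low phosphate. Both low phosphate libraries lay well below both controls, and the log2 change was -0.74 ± 0.14 (SE, edgeR quasi-likelihood adjusted p = 0.0425). Without any 1 of the 4 footprint libraries the adjusted p ran from 0.0919 to 0.313, so the call was lost each time. In poly(A) RNA atpE had 70.2 and 64.3 scaled CPM in control and 77.1 and 69.1 in low phosphate, with overlapping groups. Its partner atpB (ATCG00480), whose coding sequence overlaps it by 4 nt in RefSeq, had 320.3 and 354.9 scaled CPM in control footprints and 235.6 and 230.0 in low phosphate, a log2 change of -0.54 ± 0.18 that did not pass (adjusted p = 0.272).

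Ribosomal protein genes had the lowest class medians in footprints, in an assay where only atpE passed the test. The median log2 change was -0.92 for the 10 tested small-subunit ribosomal proteins, -0.87 for 7 large-subunit ribosomal proteins and -0.76 for 4 polymerase subunits, with 6, 5 and 3 members at an unadjusted p under 0.05. Of all tested rows 11.5% were under that value. The 2 photosystem I assembly genes lay near these classes, with a median of -0.85 and both under that value. rps3 had 88.8 and 49.4 scaled CPM in control footprints and 28.4 and 41.5 in low phosphate. Its groups did not overlap, and its log2 change of -0.99 ± 0.32 did not pass (adjusted p = 0.270). rpoB (ATCG00190), the beta subunit of the bacterial-type polymerase, had 21.4 and 15.1 in control and 8.52 and 14.2 in low phosphate, also without overlap, with a log2 change of -0.70 ± 0.29 (adjusted p = 0.403). clpP (ATCG00670), a subunit of the plastid Clp protease that is needed in plastids of all kinds, had 355.2 and 262.0 in control and 125.7 and 210.7 in low phosphate, a change of -0.88 ± 0.24 (adjusted p = 0.164). It passed in DESeq2 (adjusted p = 0.0243) and without the filter on low counts (0.0337).

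Photosynthesis classes lay somewhat higher, with footprint medians of -0.72 for cytochrome b6f, -0.65 for photosystem I, -0.60 for photosystem II and -0.59 for ATP synthase. An unadjusted p under 0.05 was found for 24 of 33 members and for 11.5% of all rows. psbA had 987.5 and 1529 scaled CPM in control footprints and 940.6 and 662.8 in low phosphate, without overlap but with a narrow gap, and a log2 change of -0.65 ± 0.25 (adjusted p = 0.360). psbD (ATCG00270), which encodes the D2 reaction centre protein, had 474.2 and 687.8 in control and 351.5 and 345.1 in low phosphate (-0.74 ± 0.19, adjusted p = 0.134), and passed in DESeq2 (0.0138) and without the filter (0.0409). petD (ATCG00730), subunit IV of the cytochrome b6f complex, had 178.0 and 199.8 in control and 94.0 and 113.4 in low phosphate. Its log2 change of -0.87 ± 0.18 did not pass in edgeR (adjusted p = 0.0575) and passed in DESeq2 (0.00140) and without the filter (0.0119). rbcL was among the 12 members whose groups overlapped, with 1145 and 1806 in control and 1240 and 829.0 in low phosphate. Among NDH genes, the 10 tested subunits of the NDH complex, which returns electrons to the photosynthetic chain, had the class median nearest 0, -0.46. Of these, 1 had an unadjusted p under 0.05, near the 11.5% of all rows.

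The replicates of a condition differed among themselves by class in footprints. The ratio of photosynthesis counts to gene expression counts among plastid footprints was 7.24 and 13.1 in control replicates 1 and 2 and 16.1 and 8.59 in low phosphate replicates 1 and 2. Control replicate 2 and low phosphate replicate 1 thus had the high ratios, and the conditions overlapped. accD moved against psbA and rbcL between replicates: it took 9.003% and 4.67% of plastid footprints in control and 5.25% and 9.12% in low phosphate, while rbcL took 12.3% and 15.9%, and 18.2% and 12.8%. Nuclear photosynthesis genes, a marker list of 40 genes for green tissue, moved with this ratio. Their summed level was 1248 and 2417 scaled CPM in control footprints and 1858 and 1376 in low phosphate, and 896.9 and 2130 in control poly(A) RNA and 1887 and 1332 in low phosphate. All 40 had counts in each of these 8 libraries. The summed level of 7 shoot and stomata markers was 4.31 and 6.09 scaled CPM in control footprints and 4.59 and 1.70 in low phosphate, and 3.06, 5.36, 5.55 and 2.47 in poly(A) RNA in the same order, with 4, 1, 1 and 3 of the 7 at 0 in both assays. These low levels, too, were highest in control replicate 2 and low phosphate replicate 1. The 10 root markers summed to 744.6 to 838.9 in footprints. YAB3 and BP, the shoot markers of smallest poly(A) p, did not pass. The part of green tissue in the footprint differences was not tested.

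**Figure D4:**
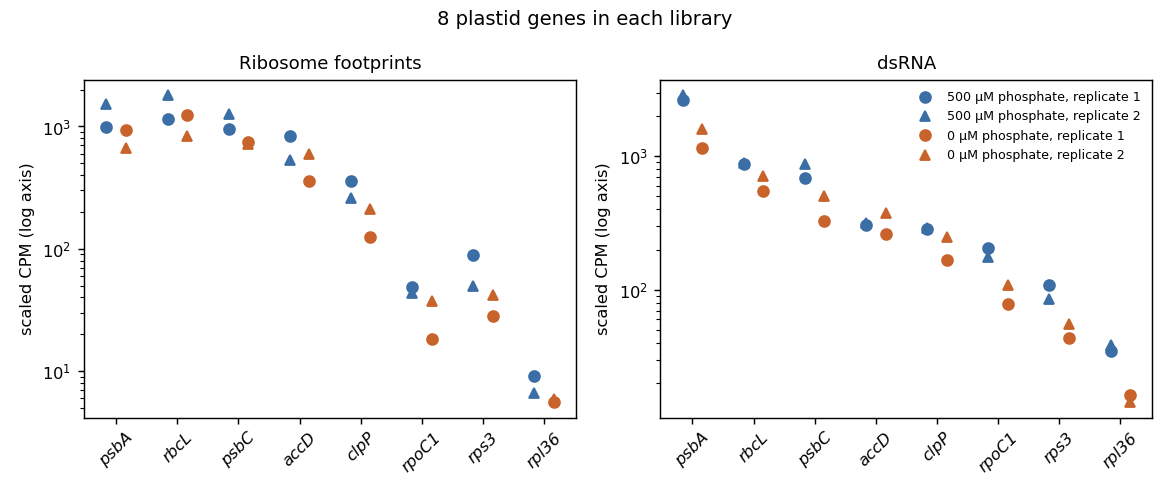
TMM-scaled CPM (log axes) of 8 plastid genes in each library of footprints (left) and dsRNA (right); circles are replicate 1 and triangles replicate 2, blue 500 µM and orange 0 µM phosphate. In footprints the order of the 2 replicates differs between psbA or rbcL and accD, clpP or rps3, and in dsRNA low phosphate lies below control except for accD.

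In plastid poly(A) RNA the log2 changes lay on both sides of 0. None of the 72 tested members was called in either direction, where 1.18% of all tested rows were called (0.931% higher and 0.252% lower). Of these members 13 had an unadjusted p under 0.05, as had 8.91% of all rows, and DESeq2 called 1 member, ndhA, lower. The median log2 change was -0.04, with 37 negative and 34 positive values. Without low phosphate replicate 1, 53 of 73 were negative, and without any 1 library the ratio of mean plastid shares ran from 0.751 to 1.05. Many members had few poly(A) reads, and some passed the filter only through their footprints. With poly(A) RNA fitted alone, 52 members passed it and none was called. Among the 36 with at least 100 poly(A) reads over the 4 libraries, a minimum chosen after the counts were seen, log2 changes ran from -1.38 for ndhA to 0.76 for rpoC1 with a median of -0.15. ndhA (ATCG01100), an NDH subunit named because it marks that end of the range, had 4.62 and 3.29 scaled CPM in control and 0.997 and 2.00 in low phosphate. Its groups did not overlap, and its change of -1.38 ± 0.43 did not pass in edgeR (adjusted p = 0.262). In 12 members both low phosphate libraries lay below both controls and in 6 above, where 20.2% and 21.6% of all tested rows did so.

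Within the rpoA to rps19 run, poly(A) levels were high in control replicate 1. rpl16 had 138.1 and 92.9 scaled CPM in control and 98.9 and 102.2 in low phosphate, and rpl14 had 77.3 and 45.1 in control and 47.3 and 40.3 in low phosphate. rpoA, the alpha subunit of the polymerase, had 41.6 and 26.1 in control and 18.2 and 21.2 in low phosphate, with a log2 change of -0.78 ± 0.30 that did not pass (adjusted p = 0.430). Only rpoA of these 3 had groups that did not overlap. psbD had 19.7 and 19.0 in control and 19.4 and 15.9 in low phosphate.

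Footprints were also set against poly(A) RNA across the conditions. No member passed the test of a changed ratio, and no row of the whole table did (0% called), while 15 members had an unadjusted p under 0.05, as had 397 of all 19866 rows. The log2 change of the ratio was negative in 61 of 72 members with a median of -0.62, where the median of all tested rows was -0.01. Among the 36 members with at least 100 poly(A) reads it was negative in 33, from -1.49 for rpoC1 to 0.65 for ndhA, with a median of -0.60. Other sets had negative ratio changes too: 38 of 40 nuclear photosynthesis genes (median -0.36) and 23 of 29 nuclear genes for plastid ribosomal proteins (-0.18). Of mitochondrion-encoded rows 19 of 26 were negative (-0.38). Nuclear genes for plastid transcription (9 of 23 negative) and for plastid nucleic acid turnover (3 of 7) were mostly positive. The ratio shares its footprint and poly(A) libraries with the comparisons above.

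In dsRNA 47 of the 88 members were called lower in low phosphate roots, at least 1 in every class except Rubisco, which has 1 gene. These rows hold both copies of each repeated gene, which cannot be told apart. Such a gene enters this count and the class counts below once per copy. Without the repeat rows the ratio of mean plastid dsRNA shares, low phosphate over control, was 0.535. dsRNA was prepared from total RNA by removing ribosomal RNA and digesting single-stranded RNA, so a plastid row counts RNA left after that digestion. How complete the digestion was for plastid RNA was not tested. No member was called higher (edgeR quasi-likelihood test, adjusted over 17570 rows), where 5.57% of all tested rows were lower and 10.2% higher. An unadjusted p under 0.05 was found for 77 members and for 26.7% of all rows. DESeq2 called 36 members lower and none higher, where it called 2.99% of all rows lower. The median log2 change was -0.75 over the members and -0.02 over all tested rows, and 87 of 88 members were negative. In 81 of 88 both low phosphate libraries lay below both controls, against 27.1% of all tested rows, and in 0 of 88 above, against 26.8%. As in footprints, the members are not replicates, and these counts are no separate evidence beside the lower plastid share of dsRNA. The count changed with the libraries used: it was 2 without control replicate 1 and 0 without control replicate 2, 30 without low phosphate replicate 1 and 79 without low phosphate replicate 2. The median log2 change was -0.70, -0.79, -0.47 and -1.04 in these fits, in that order, and at least 84 of 88 log2 changes were negative in each.

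The RNA polymerase genes fell together, 3 of 4. rpoB had 162.8 and 149.6 scaled CPM in control dsRNA and 64.7 and 88.4 in low phosphate. Both low phosphate values were far below the controls, a log2 change of -1.04 ± 0.23 (adjusted p = 7.83e-05). rpoC1 (ATCG00180), which encodes the beta' subunit, had 206.1 and 176.0 in control and 78.5 and 108.9 in low phosphate, and fell by the same amount (-1.04 ± 0.23, adjusted p = 7.94e-05). rpoA fell by 0.85 on the log2 scale (adjusted p = 0.00194).

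Ribosomal protein genes followed, with 9 of 15 small-subunit rows and 7 of 11 large-subunit rows lower and medians of -0.80 in both classes. rpl36 (ATCG00760) had 34.6 and 38.8 scaled CPM in control dsRNA and 16.3 and 14.4 in low phosphate, a log2 change of -1.24 ± 0.27 (adjusted p = 8.83e-05). Of the called members named here it was the one that kept its call in 3 of the 4 fits without 1 library, with adjusted p up to 0.0656. rps19 (ATCG00820) fell by 1.07, rpl33 (ATCG00640) by 1.03 and rps3 by 0.98 on the log2 scale, with adjusted p from 0.000285 to 0.000327. A first copy of rpl2 (ATCG00830), which lies in the repeat, had 93.6 and 101.9 scaled CPM in control and 48.4 and 50.8 in low phosphate, and fell by 0.98 (adjusted p = 0.000330). Its second copy (ATCG01310) had 96.1 and 109.6 in control and 59.2 and 71.3 in low phosphate, and fell by 0.66 (adjusted p = 0.0265). In all of these rows the 2 groups were apart. The copies of rpl2 cannot be told apart and are not separate results.

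Photosystem II genes were lower in 11 of 15 cases. Of all plastid dsRNA counts psbA held 21.7% and 23.096% in control roots, and 18.6% and 18.2% under low phosphate. Its level was 2659 and 2873 scaled CPM in control and 1152 and 1597 in low phosphate, a log2 change of -1.01 ± 0.25 (adjusted p = 0.000734). psbC (ATCG00280), for the core antenna protein CP43, had 690.8 and 881.1 in control and 328.4 and 503.4 in low phosphate (-0.92 ± 0.23, adjusted p = 0.00125). psbD, which shares 53 nt of coding sequence with psbC in RefSeq, fell by 0.81 (adjusted p = 0.00389). The NDH complex had 8 of 12 members lower, among them ndhD (ATCG01050) by 0.91 and ndhH (ATCG01110) by 0.77 on the log2 scale. When 1 library was left out, the change of ndhH ran from -1.14 to -0.43 and passed in 1 of 4 fits, and that of ndhD ran from -1.14 to -0.69 and passed in 2 of 4. ndhK (ATCG00430) had 9.13 and 12.7 in control and 7.22 and 13.7 in low phosphate, with overlap.

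Other classes had fewer calls at similar direction. ATP synthase had 3 of 6 members lower, cytochrome b6f 1 of 6, photosystem I 1 of 5 and the photosystem I assembly factors 1 of 2, which was ycf3 (ATCG00360). psaA (ATCG00350) and psaB (ATCG00340), the reaction centre pair of photosystem I, missed the threshold with log2 changes of -0.58 ± 0.23 and -0.59 ± 0.23 (adjusted p = 0.0653 and 0.0602). rbcL had 879.5 and 889.6 scaled CPM in control dsRNA and 553.8 and 717.3 in low phosphate, without overlap, and did not pass (-0.48 ± 0.24, adjusted p = 0.167). ycf1 fell by 0.90 (adjusted p = 0.000984), while clpP, at -0.47 ± 0.23, did not pass (adjusted p = 0.150). The 2 rows without a symbol were both lower.

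accD had the highest log2 change of the members in dsRNA. It had 304.8 and 319.1 scaled CPM in control and 263.2 and 376.7 in low phosphate, with overlapping groups and a log2 change of 0.03 ± 0.23 (adjusted p = 0.950). It was the single member whose change was not negative, but the highest change among NDH genes, -0.08, was close to that of accD. The accD share of plastid dsRNA counts was 2.49% and 2.56% in control and 4.25% and 4.30% in low phosphate, without overlap. When each library was scaled to its plastid total, no member was called lower, which follows from that centring. The scaling moved the median of all tested rows to 0.75 on the log2 scale, and accD, at 0.76 ± 0.24, lay at that median, so no change of accD is read from it.

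**Figure D5:**
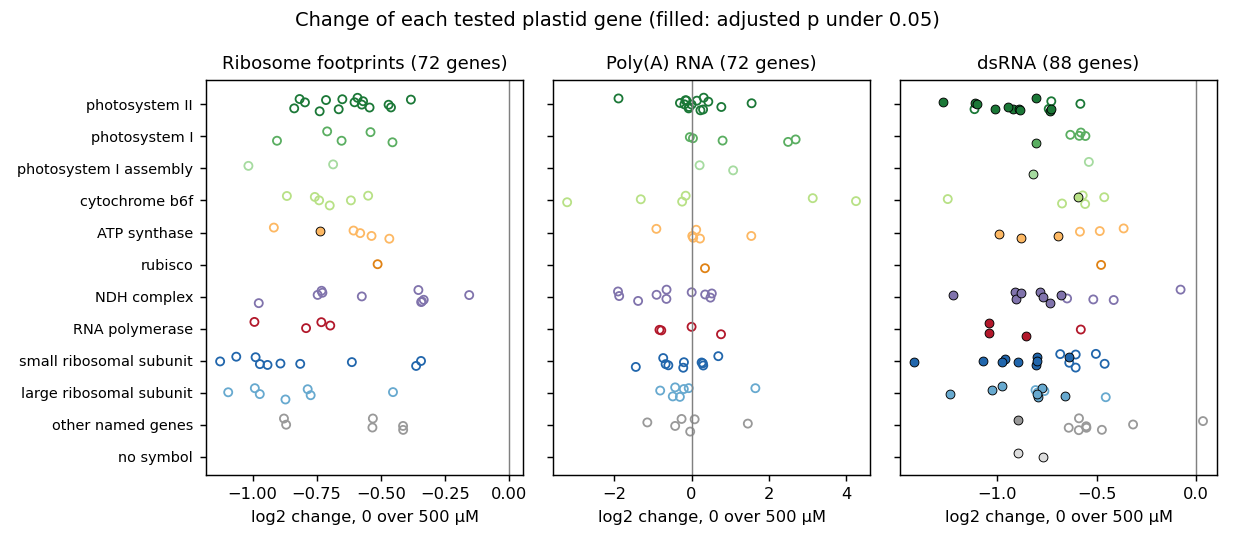
log2 change from 500 to 0 µM phosphate (x axes, with a different range in each panel) of each tested plastid gene, by functional class, in footprints, poly(A) RNA and dsRNA. Filled points passed an adjusted p of 0.05. Footprint values all lie left of 0, poly(A) values spread on both sides, and dsRNA values lie left of 0 with accD as the exception.

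Nuclear genes of the plastid were looked at beside these. In dsRNA they were also lower in part: 6 of 26 tested nuclear photosynthesis genes fell and none rose, 5 of 29 nuclear genes for plastid ribosomal proteins, 3 of 19 genes for plastid transcription and 1 of 6 for plastid nucleic acid turnover, with median log2 changes of -0.71, -0.60, -0.56 and -0.29, where 5.57% of all tested rows were lower. Nothing is read from the 1 gene of the last list. The summed dsRNA level of the 40 photosynthesis genes was 396.9 and 412.1 scaled CPM in control and 252.4 and 244.3 in low phosphate, without overlap, with 0 to 2 of them at 0 in a library. Of 95 tested mitochondrion-encoded rows 4 were called lower, near the 5.57% of all rows, and none higher, with a median of -0.31. In 44 of the 95 both low phosphate libraries lay below both controls, against 27.1% of all rows. In poly(A) RNA and in footprints no member of these 4 nuclear lists was called. Their poly(A) medians were 0.13, 0.15, 0.05 and 0.11, and their footprint medians -0.25, -0.06, 0.10 and 0.19. Footprint changes were negative in 35 of 40, 17 of 29, 9 of 23 and 3 of 7 of their members. Of 26 tested mitochondrion-encoded rows 20 were negative in footprints, with a median of -0.21. DPD1, a plastid and mitochondrial exonuclease that degrades organelle DNA and has been tied to phosphate recycling, had a poly(A) log2 change of 0.30 ± 0.16 (adjusted p = 0.691). PNP1, the plastid polynucleotide phosphorylase, which degrades RNA using phosphate, had -0.20 ± 0.21 (adjusted p = 0.907). The members of smallest poly(A) p in the other 3 lists were GLK1 and GLK2, PRPL13 and PRPL6, and ATPC1 and RBCS1B, none past the threshold (adjusted p from 0.780 to 0.890). Of the 10 root markers SKOR fell by 1.68 and EXPA7 rose by 0.98 on the log2 scale in poly(A) RNA (adjusted p = 0.000605 and 0.0111).

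Outside the coding rows, the table of noncoding transcripts held 16 on the plastid chromosome (TAIR10), 13 on the plus and 3 on the minus strand. In 15 of them no library had more than 20 footprints. The transcript at C:46046-46446 on the plus strand had 371 to 625 poly(A) reads and 0 to 4 footprints over the 8 libraries. The one at C:32412-36023 on the minus strand was the reverse, with 151 to 198 footprints and 9 to 33 poly(A) reads. Both were picked for their values. Conditions are not compared in that table.

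Plastid small RNAs carried no Dicer size signature in the authors' locus table. All 17 plastid loci lacked a size call, as did 27.7% of all 25025 loci, and 43.7% of the plastid reads were longer than 24 nt against 19.1% in nuclear loci. Together the plastid loci held 765616 reads, 0.877% of the reads in the table. The sample labels name small RNA for control roots only (sRNA_No_Stress). The libraries behind these totals are not stated in the table, so they are values without replicates or condition. The loci at C:93150-111078 and C:125436-154478, which overlap the inverted repeat copies, held 70.9% of the plastid reads. Their most read RNA was the same 21-nt sequence, with 20850 of 268708 and 20764 of 274110 reads, a small part of each locus. Which longer RNA it may be a piece of was not tested. In these 2 loci 87.7% and 13.2% of the reads came from the top strand, in mirror image as the repeat is. The 21-nt sequence is printed with the most read RNAs of 2 other loci, 5′ to 3′ as deposited and in lower case throughout, as no base is singled out. Those 2 loci were chosen after their values were seen, because a single sequence made up a large part of their reads.
repeat loci, 21 nt: aacagaccgguagacuugaac
C:1622-4641, 24 nt: uuuugcgaauguaugaacagaauc
C:27225-30565, 29 nt: gggauuguaguucaauuggucagagcacc
The second RNA had 1217 of the 3988 reads of its locus and the last had 1641 of 7309. In the latter locus 83.9% of reads were longer than 24 nt.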

How the data were processed

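Per the submitters' processing notes, the authors' tools were CASAVA 1.8, TopHat 1.3.1 and Bowtie2 2.2.9, and the build was TAIR10. No source used here names the counter or whether it used strand, so antisense and overlapping genes may share reads. The deposited values are raw counts per gene, per noncoding transcript and, for small RNAs, per locus with a strand fraction per the file headers. UTR and uORF tables hold no plastid rows and were not used. No labelled sample is low phosphate small RNA, and none was analysed here.

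Counts were fitted with edgeR 4.0.16 in R 4.3.3 (TMM, expression filter by group, quasi-likelihood, two-sided): the 8 coding libraries of 4 groups in 1 fit, the 4 dsRNA libraries in another. Adjusted p-values are Benjamini-Hochberg over all tested rows, with a threshold of 0.05. They measure the spread between these libraries only. Errors of log2 changes are SE. The scripts were tested on simulated data. Intervals and floors cover counting error only. Per-kilobase levels used RefSeq coding lengths and left out 9 genes with introns.

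The files do not pair ATCG identifiers with symbols. Symbols and classes follow the standard Arabidopsis nomenclature; in order along the chromosome 83 of 83 equalled the plastid genes of RefSeq TAIR10.1, a table used for names and coding lengths. No plastid sequence from a reference was used.

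Named genes are the 2 of highest poly(A) level in each class, psbA, rbcL, accD, rpoB and clpP, and called members (the 12 of smallest p where more were called). Some genes that this rule takes are not reported here. Members, lists and this rule were chosen with earlier results of these data known. Alternatives were DESeq2 1.42.0, other scalings, no filter, a replicate block, each assay alone and leaving out each library.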

Additional observations from a re-analysis of the deposited data

How the results depend on the processing

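Footprint calls depended on the processing. Against 1 called member, 9 were called without the low-count filter, 13 by DESeq2, 0 with footprints fitted alone, 0 scaled to the plastid total and 0 to 3 when 1 library was left out, with at least 68 log2 changes negative except under plastid scaling. In poly(A) RNA DESeq2 called 1 member. The dsRNA count of 47 became 1, which was higher, under plastid scaling and 0 to 79 when 1 library was left out. RLE scaling, nuclear scaling, no filter and DESeq2 gave 46, 49, 45 and 36. For footprints against poly(A), counts stayed within 57 to 66 in both conditions.

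Replicate numbers were not stated to pair libraries. With a replicate block 5 footprint members, 0 poly(A) members and 43 dsRNA members were called, and pairing same-numbered footprint and poly(A) libraries gave 3 members of changed ratio (atpE, atpH and rps14, all lower). Deviations of same-numbered libraries over all genes correlated at 0.27 and 0.45 between footprints and poly(A), -0.05 between footprints of the conditions and -0.02 in dsRNA. Over plastid genes the last 2 were -0.60 and -0.28.

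Of the values of single genes and classes under the alternatives, 1308 kept direction and side of the threshold, 63 lost and 25 gained a call, and 100 moved. The sign turned with a call in either fit for 3, all of footprints against poly(A) in control scaled to the plastid total, where the log2 difference was -3.81 for atpE, -3.53 for rpoA and -3.25 for rps3. Low poly(A) counts limit the ratio of most photosynthesis genes, and 2 libraries per group limit every share.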
